A study of Mus musculus with 2 samples.

Results

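Metallothioneins, the transcription factor that reads zinc for them and a set of zinc transporters were compared between T helper 17 (Th17) cells and group 3 innate lymphoid cells (ILC3s) of the mouse small intestine. The 10 genes were taken by name from the deposited table of gene-level normalized counts, which held 17024 usable genes. They are the metallothioneins Mt1, Mt2 and Mt3, the zinc sensor Mtf1, the zinc exporters Slc30a1, Slc30a5 and Slc30a7, and the zinc importers Slc39a1, Slc39a6 and Slc39a10. All 10 had a row. They were listed with values of this same comparison known, so the values below describe them and no p-value was computed.

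The Th17 library came from GFP-positive T cells of IL17A_IRES_GFP knock-in mice, and the ILC3 library from GFP-positive ILC3s of IL23R_GFP knock-in mice. All mice were C57BL/6 and 6 to 8 weeks old. Cell type, mouse line and reporter therefore differ together and cannot be told apart. Each group had 1 library, so no difference has a replicate check, and the sources used here do not say how many animals gave the cells. Reads recovered from the normalized counts summed to 17555055 for Th17 and 22509405 for ILC3 over the 17024 genes. These are reads assigned to genes and not the sequencing depth. The intervals printed are exact (Clopper-Pearson, conditional binomial) 95% intervals for counting error only, since reads amplified by PCR and carrying no molecular identifier do not each stand for a molecule. Such an interval sets 1 library against the other and says nothing of the cell types at large. Il17a, which the Th17 reporter follows, had 33614 normalized counts in Th17 cells against 953 in ILC3s. Il23r, which the ILC3 reporter follows, differed less, with 5435 in Th17 cells against 9688 in ILC3s, so that the ILC3 library exceeded the Th17 library 1.78-fold (1.72 to 1.84). All 7 T cell markers examined were higher in Th17 and all 8 ILC3 markers were higher in ILC3. Cd3e had 9897 in Th17 cells against 651 in ILC3s, and Kit had 3963 in Th17 cells against 21092 in ILC3s. None of these markers was listed at 0 in the other library, but some ILC3 markers were near 0 in Th17. Ncr1 had 1 read in Th17 and 2028 in ILC3, and Arg1 had 5 reads in Th17 and 3713 in ILC3.

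Metallothioneins are small cysteine-rich proteins that bind zinc and copper and also take up cadmium. MTF1 is a zinc-finger transcription factor that binds DNA when zinc is plentiful and drives metallothionein genes and Slc30a1 through metal response elements. Proteins of the SLC30 (ZnT) family move zinc out of the cytosol, to the outside or into organelles, and proteins of the SLC39 (ZIP) family move it in. In T cells zinc acts on signalling downstream of the antigen receptor, where the kinase LCK is held to its coreceptors by zinc.

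The stretches before the annotated starts of Mt1, Mt2 and Mt3 are shown because these are the 3 members with the largest differences and they lie side by side on chromosome 8. The sequences are from RefSeq, assembly GRCm38.p6, plus strand, 5' to 3', with capitals marking matches to the core of the metal response element, searched as TGCACNC and TGCGCNC on both strands. The Mt1 stretch is chr8:94178839-94179081 (243 bases, ending before the first exon in GENCODE), the Mt2 stretch chr8:94172368-94172617 and the Mt3 stretch chr8:94152357-94152606 (250 bases each).
Mt1: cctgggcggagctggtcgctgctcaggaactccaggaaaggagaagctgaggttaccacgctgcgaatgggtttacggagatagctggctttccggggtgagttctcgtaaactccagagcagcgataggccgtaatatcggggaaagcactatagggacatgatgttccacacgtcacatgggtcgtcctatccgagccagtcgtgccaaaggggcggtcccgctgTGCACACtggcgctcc
Mt2: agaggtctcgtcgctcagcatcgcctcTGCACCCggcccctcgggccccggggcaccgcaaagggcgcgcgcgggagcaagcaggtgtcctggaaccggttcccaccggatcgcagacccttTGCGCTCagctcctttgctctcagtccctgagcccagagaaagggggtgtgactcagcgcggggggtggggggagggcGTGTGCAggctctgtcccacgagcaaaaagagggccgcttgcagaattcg
Mt3: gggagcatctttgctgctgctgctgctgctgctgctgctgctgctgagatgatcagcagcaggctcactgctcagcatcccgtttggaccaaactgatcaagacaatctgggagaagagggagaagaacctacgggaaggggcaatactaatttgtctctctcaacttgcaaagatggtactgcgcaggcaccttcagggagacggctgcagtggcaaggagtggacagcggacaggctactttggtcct
The Mt1 stretch holds 1 match, the Mt2 stretch 3 and the Mt3 stretch 0. Of all 32851 promoters in the reference table, 21.4% hold at least 1 match in the 250 bases before the start and 1.26% hold at least 3. Slc30a1 and Slc30a5 hold 1 match each, and Mtf1, Slc30a7, Slc39a1 and Slc39a10 hold none. A match is a string of letters and not a shown binding site. GENCODE also places later starts for Mt1 and Mt2, and bases near those starts were not searched. The counts for Mt1 and Mt2 therefore cover only the printed stretches and may miss matches nearer the later starts. Nothing is read from the order of the genes by matches.

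All 3 metallothionein genes were higher in Th17, Mt1 by 14.2-fold, Mt2 by 4.88-fold and Mt3 against no read at all in ILC3. In RNA of sorted cells in bulk, fewer expressing cells and less RNA per cell cannot be told apart. A difference is called large here when log2(normalized count + 1) differed by 2 or more, that is 4-fold, and the higher library reached 100 normalized counts. Large differences were found for 3 of the 10 members on the Th17 side and for 0 on the ILC3 side. Among the 10431 genes that reached 100 normalized counts in either library, as all 10 members did, 6.4% were called on the Th17 side and 8.39% on the ILC3 side, that is 668 genes against 875. With all values centred on 56 genes of constitutive families (proteasome, respiratory complex I and mitochondrial ribosome), whose median log2 ratio was 0.49, the split was 462 against 1214. The members were chosen from this same contrast, so nothing is read from their count. Of the other 7 members, 4 were higher in Th17 and 3 in ILC3, all by less than 4-fold. The median log2(Th17/ILC3) was 0.81 over the 10 members, also with Mt3 at its bound, 0.41 over the 7 without the metallothioneins, and 0.02 over all 13719 genes with a mean of at least 10 normalized counts.

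**Figure D1:**
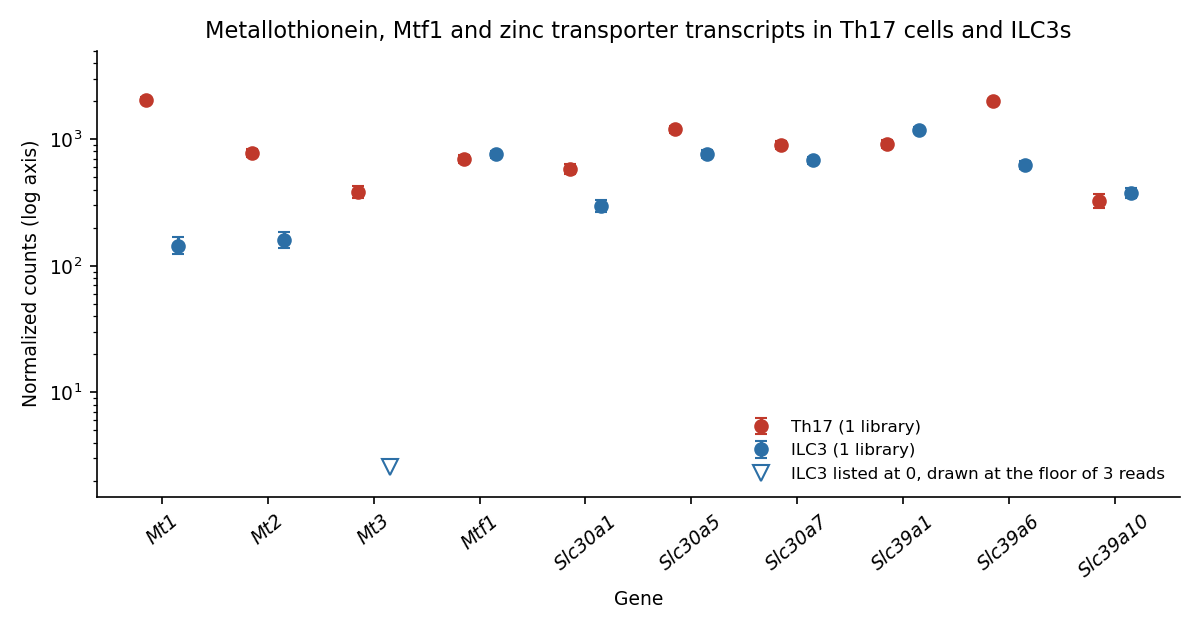
Normalized counts (log axis) of the 10 genes in the Th17 library (red) and the ILC3 library (blue), with exact Poisson 95% intervals for counting error; the open triangle marks Mt3 in ILC3, listed at 0 and drawn at the floor of 3 reads. The 3 metallothioneins lie far apart between the libraries, and each of the 7 other genes differs between them by less than 4-fold.

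Mt1, which with Mt2 forms the broadly expressed pair of the family, had 2058 normalized counts (1750 reads) in the Th17 library and 145 (170 reads) in the ILC3 library. The ratio of 14.2 had a counting interval of 12.2 to 16.8. Among the 10431 genes that reached 100, Mt1 ranked 243rd from the Th17 end by log2 ratio. Mt2 had 776 normalized counts (660 reads) in Th17 cells against 159 (187 reads) in ILC3s, a ratio of 4.88 (4.14 to 5.77) and rank 548. Both genes were therefore present in both libraries and higher in Th17, Mt1 by the wider margin. The interval of the Mt1 ratio does not overlap that of Mt2. When all values were centred on constitutive gene families, Mt2 fell short of the 4-fold threshold, with a log2 ratio of 1.79, and Mt1 kept its call with 3.33. An antisense transcript, Gm45774, overlaps Mt2 in GENCODE M21, and the sources used here do not say whether the counting used strand. Without strand, reads of Mt2 and of that transcript cannot be told apart. The longest stretch shared between transcripts of Mt1 and Mt2 was 20 bases, and it was 27 bases between Mt1 and Mt3.

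Mt3, a family member known mainly from brain, where it was first described as a growth inhibitory factor, had 383 normalized counts (326 reads) in the Th17 library and was listed at 0 in the ILC3 library. Against a floor of 3 reads, which is 2.55 normalized counts, it was at least 150-fold higher in Th17. By log2 ratio with 1 added to each normalized count it ranked 17th of 10431. That log2 ratio, 8.59, depends on the number added, since Mt3 was at 0 in ILC3. It was 5.30 with 10 added and 11.9 with 0.1 added, so the rank rests on that choice. Low read numbers were filled unevenly in the ILC3 library. In ILC3, 2235 genes were at 0 and 174 at 1 read, whereas in Th17 714 genes were at 0 and 1177 at 1 read. From 4 reads up and after smoothing, the most frequent low read number was 7 in ILC3 and 4, the lowest allowed, in Th17. Only ILC3 reads were grouped. With a floor of 3 groups of 7 ILC3 reads the bound for Mt3 falls to at least 21.5-fold. Of the genes at 0 in ILC3, 79 reached 100 normalized counts in Th17, and Mt3 was 15th of them by Th17 level. Nervous tissue is a known source of Mt3, and 6 of the 8 enteric nerve and glia markers listed had a row. Of these 6, Elavl4 (4 reads in Th17 and 0 in ILC3) and Tubb3 (17 reads in Th17 and 18 in ILC3, 19.99 normalized counts against 15.3) were higher in Th17. The other 4 were higher in ILC3, among them Gfap (0 reads in Th17 and 15 in ILC3), S100b (1 read in Th17 and 18 in ILC3) and Ret. Ret, a receptor gene that ILC3s also express, had 139 normalized counts in Th17 cells against 7462 in ILC3s and made up most of the summed level of 178 in Th17 cells against 7564 in ILC3s. The 5 markers without Ret summed to 38.8 in Th17 cells against 101.2 in ILC3s. The part of nervous tissue in the Mt3 value was not tested.

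Per kilobase of transcript, which allows different genes to be compared, the 3 metallothioneins summed to 5982 normalized counts in Th17 cells against 575 in ILC3s. In Th17, Mt1 made up 62.7% of that sum, Mt2 25.4% and Mt3 12.0%. In ILC3, Mt1 made up 45.8%, Mt2 54.2% and Mt3 none. The ratio of Mt1 to Mt2 per kilobase was thus 2.47 in Th17 cells against 0.846 in ILC3s. These levels use the principal transcript of each gene and depend on that length. With the union of all annotated exons the sum was 3331 in Th17 cells against 386 in ILC3s, and the ratio of Mt1 to Mt2 was 1.25 in Th17 cells against 0.429 in ILC3s. Mt1 was then at 1652 in Th17 cells against 116 in ILC3s, and Mt2 at 1320 in Th17 cells against 270.5 in ILC3s. Mt1 led Mt2 in Th17 with either length. In ILC3 their counting intervals overlap with the principal transcript, whereas with the union of exons Mt2 led Mt1, at 270.5 against 116.

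**Figure D2:**
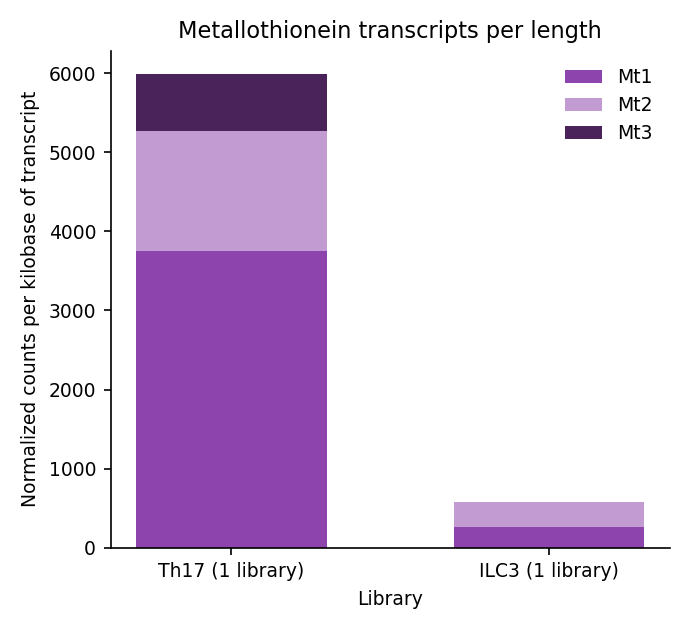
Stacked bars of Mt1, Mt2 and Mt3 in normalized counts per kilobase of principal transcript (axis from 0), for the Th17 library and the ILC3 library. The Th17 bar reaches 5982 and the ILC3 bar 575, and the Mt3 segment is absent from the ILC3 bar.

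Mtf1, the zinc sensor, did not follow the metallothioneins. It had 698 normalized counts (594 reads) in Th17 cells against 760 (894 reads) in ILC3s. The ratio of 0.919 had a counting interval of 0.827 to 1.02, which includes equal levels. An overlapping antisense gene, 1110065P20Rik, had 42.3 normalized counts in Th17 cells against 41.7 in ILC3s. Per kilobase Mtf1 stood at 91.5 in Th17 cells against 99.6 in ILC3s, close to the middle of all genes with a length in either library, at percentile 50.8 in Th17 and 51.8 in ILC3.

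The 3 exporters were all higher in Th17, each by less than 2-fold. Slc30a1 (ZnT1), the plasma membrane exporter that MTF1 drives together with the metallothioneins, had 584 normalized counts (497 reads) in Th17 cells against 297 (349 reads) in ILC3s. Its ratio was 1.97 (1.71 to 2.26), the largest of the 3 exporters. An overlapping antisense gene, 1700034H15Rik, went the other way, with 48.2 normalized counts in Th17 cells against 97.8 in ILC3s. Slc30a5 (ZnT5), which loads zinc into the early secretory pathway, had 1198 (1019 reads) in Th17 cells against 765 (899 reads) in ILC3s, a ratio of 1.57 (1.43 to 1.72). Slc30a7 (ZnT7), an exporter into the Golgi, had 905 (770 reads) in Th17 cells against 681 (801 reads) in ILC3s, a ratio of 1.33 (1.20 to 1.47). The direction of Slc30a7 rests on the scaling. Centred on constitutive families its log2 ratio became -0.08, while Slc30a1 and Slc30a5 remained positive at 0.49 and 0.16.

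The 3 importers were not uniform. Slc39a6 (ZIP6), a plasma membrane importer reported to act in T cell activation, had 1987 normalized counts (1690 reads) in Th17 cells against 627 (737 reads) in ILC3s. Its ratio of 3.17 (2.91 to 3.46) was the largest among the transporters of the 10 and short of 4-fold, and it ranked 838th of 10431. At a threshold of 2-fold it would join the 3 metallothioneins, giving 4 members on the Th17 side and 0 on the ILC3 side, beside 16.2% and 16% of the 10431 genes. Slc39a1 (ZIP1), a broadly expressed plasma membrane importer, had 912 (776 reads) in Th17 cells against 1180.4 (1388 reads) in ILC3s. ILC3s exceeded Th17 cells 1.29-fold (1.18 to 1.41), and it was the only member whose counting interval lay wholly on the ILC3 side. Slc39a10 (ZIP10), a relative of ZIP6 with which it can form a complex, had 326 (277 reads) in Th17 cells against 377 (443 reads) in ILC3s. Its ratio of 0.865 had an interval of 0.741 to 1.01, which includes equal levels. By counting error alone, 7 members lay on the Th17 side, 1 on the ILC3 side and 2 were not resolved, beside 47.6% of the 10431 genes on the Th17 side and 38.2% on the ILC3 side. With ILC3 reads taken in groups of 7, the same sorting of the 10 members held.

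**Figure D3:**
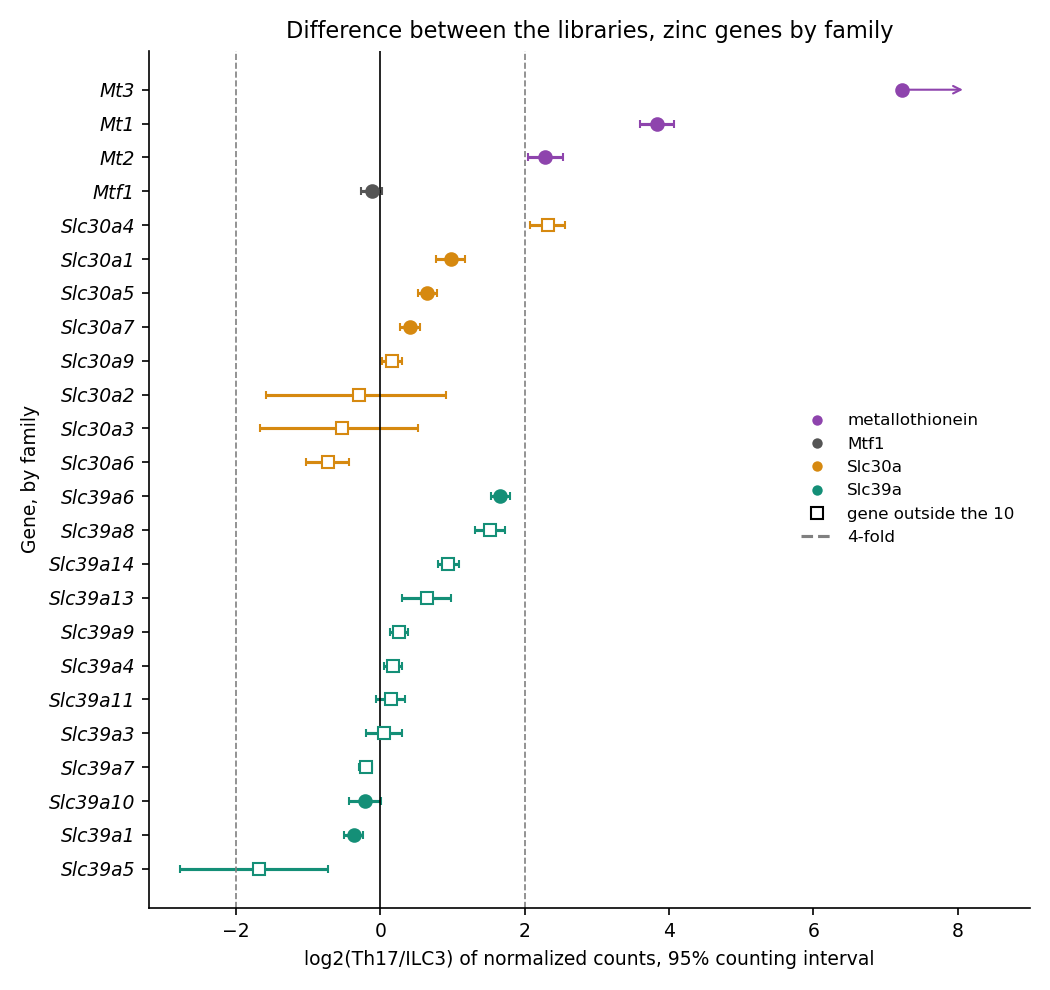
Log2(Th17/ILC3) of normalized counts, without a pseudocount, for the 24 zinc genes with a mean of at least 10 normalized counts, grouped by family, with 95% counting intervals; filled circles are the 10 genes, open squares the other zinc genes, dashed lines mark 4-fold, and the arrow on Mt3 marks a lower bound. Metallothioneins lie beyond 4-fold on the Th17 side, Mtf1 lies near 0, and most transporters lie between the dashed lines.

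The order of the members' levels per kilobase differed between the libraries. In Th17 it ran from Mt1 at 3748, Mt2 at 1519 and Mt3 at 715 to Slc39a6 at 512, then Slc39a1 at 386 and Slc30a5 at 377, whose counting intervals overlap. Slc30a1 at 111, Slc30a7 at 100.4 and Mtf1 at 91.5 followed, each overlapping its neighbour, and Slc39a10 was last at 59.2. In ILC3 the order was led by Slc39a1 at 499. Mt2 at 311, Mt1 at 263 and Slc30a5 at 240 followed, with overlapping intervals from each to the next within these 3. Below them were Slc39a6 at 161 and Mtf1 at 99.6, then Slc30a7 at 75.5, Slc39a10 at 68.5 and Slc30a1 at 56.6, each overlapping the next, with Mt3 at 0. With these lengths the metallothioneins held the top of the list in Th17, and an importer held it in ILC3. With the union of exons as length, Mt1 and Mt2 still led in Th17, but Mt3 was 6th at 359.6, below Slc39a6, Slc39a1 and Slc30a5. In ILC3, Slc39a1 and Mt2 still led and Mt1 was 5th at 116, below Slc30a5 and Slc39a6.

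The remaining genes of both transporter families, with Mt4, make a list of 19, of which 17 had a row and 11 reached 100 normalized counts. Of these 11, 1 had a large difference on the Th17 side, 0 on the ILC3 side and 10 had none. Over all 10431 genes the shares were 6.4% and 8.39%, so 1 call is near them and nothing is read from it. The median log2 ratio of the 14 with a mean of at least 10 was 0.15. The 1 gene was Slc30a4 (ZnT4), an exporter into endosomes and secretory vesicles, with 773 normalized counts (657 reads) in Th17 cells against 155 (182 reads) in ILC3s, a ratio of 4.99 (4.23 to 5.91). Centred on constitutive families, its log2 ratio of 1.82 was short of the threshold. In the plane of both libraries it was the gene nearest to Mt2.

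Among the other importers, Slc39a8 (ZIP8), which carries zinc, manganese and cadmium, had 695 normalized counts in Th17 cells against 242 in ILC3s, a ratio of 2.87 (2.49 to 3.31). Slc39a14 (ZIP14), its close relative that also carries iron, had 1130 in Th17 cells against 588 in ILC3s, a ratio of 1.92 (1.74 to 2.12). Both were higher in Th17 by less than 4-fold. Slc39a13 (ZIP13) had 187 in Th17 cells against 120 in ILC3s, a ratio of 1.56 (1.24 to 1.97). Slc39a7 (ZIP7), which releases zinc from the endoplasmic reticulum and Golgi into the cytosol, had 1817 in Th17 cells against 2095 in ILC3s, so that ILC3s exceeded Th17 cells 1.15-fold (1.08 to 1.23). Slc30a6 (ZnT6), the partner of ZnT5 in the secretory pathway, went against Slc30a5, with 163 in Th17 cells against 271 in ILC3s, so that ILC3s exceeded Th17 cells 1.66-fold (1.36 to 2.04).

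The rest lay near equality or near the floor. Slc30a9, Slc39a3, Slc39a4, Slc39a9 and Slc39a11 had ratios from 1.03 for Slc39a3 to 1.20 for Slc39a9. Each of these 5 turned to the ILC3 side when centred on constitutive families. Slc39a5 had 12.9 normalized counts in Th17 cells against 41.7 in ILC3s, and its log2 ratio was -1.61. Slc30a2 and Slc30a3 had between 11.8 and 20.4 in either library, with intervals that include equal levels. For Slc39a2 the Th17 library held 11 reads and the ILC3 library none. Against a floor of 3 reads it was at least 5.07-fold higher in Th17. With a floor of 3 groups of ILC3 reads, 17.9 normalized counts, its Th17 level of 12.9 lies below the floor. No bound holds for Slc39a2 in that case. Slc30a10 had 5 reads in Th17 and 1 in ILC3, and Slc30a8 had 1 read in Th17 and 0 in ILC3. Mt4 and Slc39a12 had no row and were not analysed here. Among the 10 genes of the SLC30 family with a row, 7 were thus higher in Th17 and 3 in ILC3 at any size. Among the 13 of the SLC39 family 9 were higher in Th17 and 4 in ILC3. Of all 17024 genes, 9274 were higher in Th17 and 7749 in ILC3. With a mean of at least 10 normalized counts, the splits were 5 against 3 for SLC30 and 8 against 4 for SLC39. Several of these directions rest on few reads or turn with the scaling, and nothing is read from the counts.

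**Figure D4:**
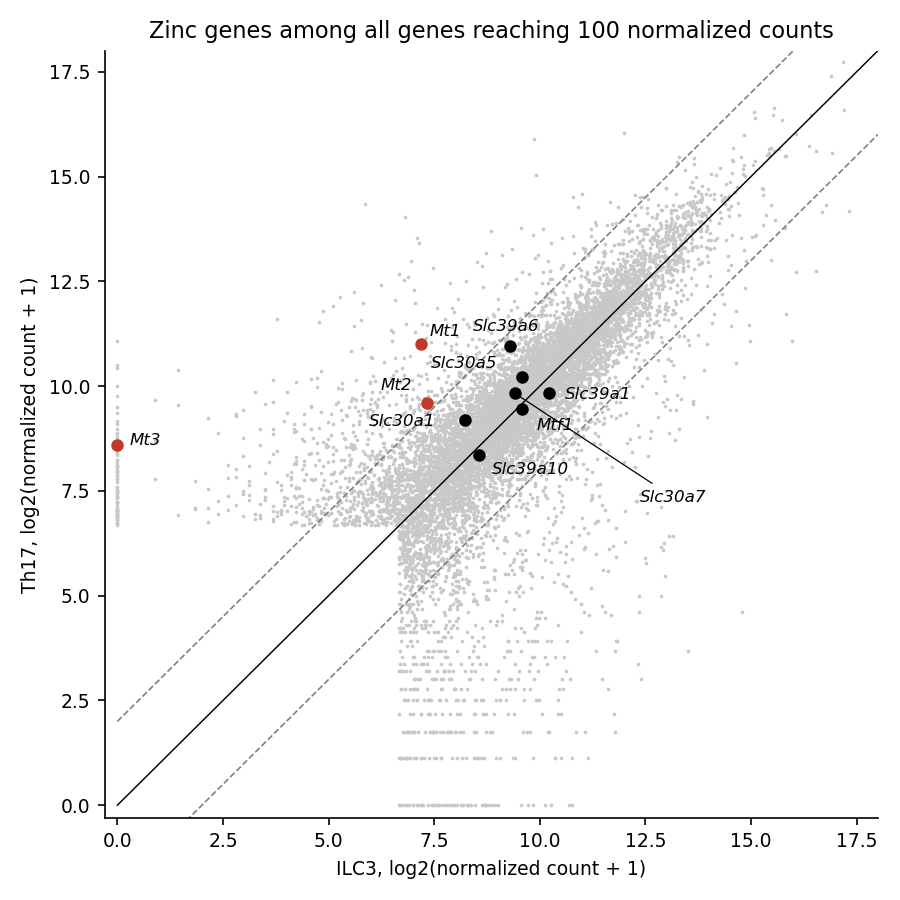
Log2(normalized count + 1) in Th17 (vertical) against ILC3 (horizontal) for the 10431 genes that reached 100 normalized counts in either library (grey), with the 10 genes named; the solid line marks equal values, the dashed lines 4-fold, and red marks a large difference. Mt1, Mt2 and Mt3 lie above the upper dashed line, and the 7 others lie between the lines.

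The genes with the most similar levels were found by distance on log2(normalized count + 1) over the 2 libraries. For Mt1 they included Ccr1, a chemokine receptor, at 2271 normalized counts in Th17 cells against 156 in ILC3s, and Cdk6, a cell cycle kinase, at 2120.1 in Th17 cells against 171 in ILC3s. For Mt2 they were Slc30a4, Lrp8 and Cdkn2d, the furthest at a distance of 0.0622 log2 units. For Slc30a1 they were Ndufs6, Zbed4 and Naa16, the furthest at 0.0369. With 2 libraries this likeness describes a pair of levels and nothing more.

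The genes that flank the metallothionein cluster on chromosome 8 were chosen by position alone, 4 protein-coding genes on either side in RefSeq. None of these 8 had a large difference. The nearest with reads in both libraries were Bbs2 on the Mt4 side, at 98.8 normalized counts in Th17 cells against 196 in ILC3s, and Nup93 on the Mt1 side, at 867 in Th17 cells against 466 in ILC3s. Herpud1 and Nlrc5, further out, had log2 ratios of -1.43 and 1.41. The differences of the cluster genes were larger than those of the flanking genes with more than 3 reads in either library.

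Metallothionein genes also respond to heat, oxidants and glucocorticoids, and many cell types express them, so the markers of these states and cells are given beside them. All 14 immediate early and heat shock genes examined were lower in Th17, with a summed level of 123868 normalized counts in Th17 cells against 775827 in ILC3s. Large differences were found for 10 of them, led by Zfp36, Hspa1b, Hspa1a and Atf3. For this list and those that follow, the share over all 10431 genes was 6.4% on the Th17 side and 8.39% on the ILC3 side. Of 8 genes that glucocorticoids induce in many cells, 2 were higher in Th17 and 6 in ILC3. Ddit4 had a large difference on the Th17 side, at 2195 in Th17 cells against 405 in ILC3s, and Klf9, Cebpb and Zbtb16 had one on the ILC3 side. Of 8 genes of the oxidative response, 4 were higher in Th17 and 4 in ILC3, and the 2 large differences, Hmox1 and Gclm, were on the Th17 side. All 9 stroma and endothelium markers were higher in ILC3, with sums of 2396 in Th17 cells against 11528 in ILC3s, and Cdh5 and Kdr were at 0 in Th17. Pecam1, at 1965 in Th17 cells against 3801 in ILC3s, made up most of the Th17 sum. All 9 epithelial markers with a row were higher in ILC3, with sums of 210.5 in Th17 cells against 1269.7 in ILC3s. Of the 8 myeloid markers with a row, 3 were higher in Th17 and 5 in ILC3, with sums of 664 in Th17 cells against 1021 in ILC3s. All 6 markers of B and plasma cells with a row were higher in ILC3, with sums of 3249 in Th17 cells against 13655 in ILC3s. Sdc1, at 2354 in Th17 cells against 2754 in ILC3s, made up most of that Th17 sum. The immediate early, stromal, epithelial and B cell sets lay on the ILC3 side. The glucocorticoid, oxidative and myeloid sets had genes on both sides. The T cell markers lay on the Th17 side, with sums of 76840 in Th17 cells against 5344 in ILC3s. The part of any of these in the metallothionein values was not tested.

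The authors' deposited table also gives an adjusted p for each gene. Those values rest on 1 library per group, without replicates behind them, and nothing is read from them here.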

How the data were processed

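RNA of 2 sorted populations was sequenced, 1 library each, grouped by sample title. The libraries were TruSeq RNA preparations from 1 ug of Trizol-extracted RNA, per the labels' protocols. Build mm8 and the programs DESeq 1.12.0, HTSeq 0.5.4p3 and TopHat2 2.0.6 are named in the submitters' processing notes. The sources used here do not give their order, settings or use of strand.

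Per the file headers, the deposited signal columns are the authors' normalized counts, and 100% of values in both libraries were whole multiples (within 0.001 reads) of the lowest value above 0, 1.18 for Th17 and 0.85 for ILC3, which gave the reads. The authors also deposited a fold change, equal to the Th17 over ILC3 ratio in all 17048 rows, and an adjusted p-value. A total of 24 rows whose names had become dates, 0.251% of the Th17 signal and 0.297% of the ILC3 signal, were left out. As an added count-based comparison, the interval of the ratio excluded 1 for 12296 of 17024 genes. With 1 library per group there was nothing to fit a replicated count model on.

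The members, gene lists and rules were chosen with earlier results of these data known. Named were all zinc genes with a row, the 3 nearest genes of Mt1, Mt2 and Slc30a1, and, of the copper, iron, glucocorticoid, oxidative, and immediate early and heat shock lists, up to 4 genes with a large difference. Flanking genes were added later, by position. Elavl4, Tubb3, Gfap, S100b, Ret, Cdh5, Kdr, Pecam1, Sdc1, Ncr1 and Arg1 were named after their values were seen. Other cell type markers are given as counts and sums. Some genes are not reported here. Promoters (RefSeq, GRCm38.p6) were found for 9 members, and transcript lengths came from GENCODE M21 (APPRIS principal transcript), another build than the authors'. The functions were checked on simulated counts. Alternatives were other scalings, pseudocounts, minimums and thresholds; other lengths and the grouped floor were added after seeing the data. Versions were matplotlib 3.10.9, scipy 1.17.1, pandas 2.3.3, numpy 2.4.6 and Python 3.11.15.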

Additional observations from a re-analysis of the deposited data

How the results depend on the processing

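Under 6 scalings and pseudocounts, Mt1, Mt2 and Mt3 stayed higher in Th17 in all 18 values. A pseudocount cannot turn the sign of a ratio. Each scaling shifted all genes nearly alike, by less than the smallest of these 3 log2 ratios, 2.28 for Mt2. Nothing is therefore read from the 18 signs. The number of members with a large difference higher in Th17 was 3, became 2 when centred on constitutive families (Mt2 was short of it), 4 at a 2-fold threshold, and otherwise stayed at 3 under the size rule. By counting intervals it was 7 higher in Th17 and 1 in ILC3. Of the other zinc genes, 1 was called under the authors' scaling, 0 when centred on constitutive families, 2 at a minimum of 10 normalized counts, with no minimum, or at 2-fold, and 8 higher in Th17 with 3 higher in ILC3 by counting intervals. The members' median log2 ratio of 0.81 became 0.70 by total reads, 0.75 by upper quartile, 0.80 with a pseudocount of 10 and 0.32 centred on constitutive families. That centring moved the median of all genes with a mean of at least 10 from 0.02 to -0.49, and it turned Slc30a7 and 5 zinc genes outside the 10 to the ILC3 side. The lower counting bound of each member stayed on its side of 1 with grouped ILC3 reads. No paired analysis was possible because each group had 1 library, and for the same reason no library could be left out. Depth limits Slc30a2, Slc30a3, Slc30a8 and Slc30a10, whose intervals include equal levels.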

Other observations

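Copper and iron genes were counted by the same rule, beside 6.4% of all genes called on the Th17 side and 8.39% on the ILC3 side. With 8 genes a list, 1 call is near those shares and nothing is read from it. Of 8 copper genes that reached 100 normalized counts, 1 had a large difference, Cox17, a copper chaperone of mitochondria, with 793 normalized counts in Th17 cells against 173 in ILC3s. Of 8 iron genes that reached 100, 1 had one, Hmox1, encoding haem oxygenase 1, with 209 in Th17 cells against 12.8 in ILC3s. Tfrc, which encodes the receptor for transferrin, had 3169 in Th17 cells against 1333 in ILC3s, and Slc11a2, a ferrous iron importer gene, had 709 in Th17 cells against 1482 in ILC3s. Among those that reached 100, no copper or iron gene had a large difference on the ILC3 side. Below 100, Slc40a1, the iron exporter gene, had 1 read in Th17 and 25 in ILC3 (log2 ratio -3.35), and Steap3, a ferrireductase gene, had 4 reads in Th17 and 44 in ILC3 (log2 ratio -2.75). The median log2 ratio was 0.62 over the copper genes and 0.30 over the iron genes, beside 0.02 over all genes with a mean of at least 10. In the oxidative response list, Gclm, which encodes a subunit of a glutathione synthesis enzyme, had 219.9 in Th17 cells against 23.0 in ILC3s. Tfrc, Slc11a2, Slc40a1 and Steap3 were picked after their values were seen.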
